A study of Homo sapiens with 10 samples.

Results

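The Toll-like receptor and MYD88 pathway is described here by 10 genes, chosen by symbol from the 25275 gene symbols of 2 expression tables. They are the receptors TLR1, TLR10, TLR7 and TLR9, the receptor homologue CD180, the trafficking chaperone UNC93B1, the adaptor MYD88, the kinases IRAK4 and IRAK1, and the ubiquitin ligase TRAF6. All 10 were found in both tables, and all 10 passed the filter on low values, a mean of at least 1 FPKM (fragments per kilobase of gene, scaled to the depth of the library) over the OCI-LY10 libraries. The RNA-seq libraries come from OCI-LY10 and TMD8, established human lymphoma lines of the activated B-cell-like type (ABC) of diffuse large B-cell lymphoma. In OCI-LY10, 2 libraries carried an shRNA against the transcription factor STAT3, numbered 10 and 16, and 1 library is labelled control shRNA. In TMD8, the 3 libraries likewise comprise both STAT3 shRNAs and a control, but their columns bear no names and are given by position. Every library, controls included, came from transduced cells kept in 20 ng/ml doxycycline for 2 days to induce the shRNA. No library is labelled as untransduced and no condition has a second library, so the spread behind each p-value is that between the STAT3 shRNA libraries alone. The series also holds 4 STAT3 ChIP-seq samples, which are not analysed here.

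Toll-like receptors recognise microbial molecules: TLR1 with its partner binds lipopeptides, while TLR7 and TLR9 sense RNA and unmethylated DNA inside endosomes, where UNC93B1 delivers them. Ligand-bound receptors recruit MYD88, which assembles IRAK4 and IRAK1, and these activate TRAF6 and, through it, NF-kB. In ABC lymphoma MYD88 is recurrently mutated so that it signals without ligand, and the cytokines that NF-kB then induces activate STAT3.

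The libraries did not group by their labelled line. With small RNA genes set aside, log2(FPKM + 1) over 11003 genes gave a Pearson's r of 0.994 between the 2 STAT3 shRNA libraries of OCI-LY10. It was 0.845 between each of these and the library labelled control, and 0.797 to 0.815 between them and the TMD8 columns. The library labelled control stood at 0.935, 0.939 and 0.960 with the TMD8 columns, which stood at 0.981 to 0.993 with each other. Taking genes that reached 5 FPKM in one set of libraries while staying at or under 0.5 FPKM in another, 105 reached it with both STAT3 shRNAs and not in the library labelled control, and 167 the reverse. Between the library labelled control and the TMD8 columns these counts were 6 and 1. STAT3 itself had 11.1 and 10.6 FPKM with shRNAs 10 and 16, against 16.5 FPKM in the library labelled control (log2 change -0.56, SE 0.10, limma adjusted p = 0.0465). That call was lost under 3 of 8 alternative settings, with adjusted p from 0.0378 to 0.0688 over the alternatives. In TMD8 STAT3 stood at 120.3, 24.3 and 22.5 FPKM by position. Without the library labelled control no comparison of STAT3 shRNA with control can be made in OCI-LY10, so a difference in STAT3 and any other difference of that library cannot be told apart in the results that follow.

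Markers of the labelled cell type were present throughout. Of 7 B-cell markers 7 reached 1 FPKM, and they summed to 2386 and 2642 FPKM with the STAT3 shRNAs, 838 in the library labelled control and 802 to 958 in TMD8. CD79A and CD79B made up most of the sums, while CD22 had 23.0 and 29.3 FPKM with the STAT3 shRNAs, 62.1 in the library labelled control and 79.4 to 95.8 in TMD8. The ABC markers IRF4 and BATF summed to 134 and 148 FPKM with the STAT3 shRNAs, 633 in the library labelled control and 709 to 801 in TMD8. Of 4 T-cell markers none reached 1 FPKM (sums of 0.138 and 0.338 with the STAT3 shRNAs, 0.577 in the library labelled control and 0.372 to 0.589 in TMD8), and CD3D and CD2 were listed at 0 in every library. Toll-like receptors are also expressed by myeloid and plasmacytoid dendritic cells. Of 6 myeloid markers only CD68 reached 1 FPKM, with the sum at 2.39 and 1.55 FPKM with the STAT3 shRNAs, 48.2 in the library labelled control and 23.4 to 34.9 in TMD8. Of 4 plasmacytoid dendritic markers, LILRA4 (91.0 and 186 FPKM with the STAT3 shRNAs, 1.48 in the library labelled control) and GZMB (9.39 and 11.8 with the STAT3 shRNAs, 264 in the library labelled control) did. CLEC4C was 0.127 FPKM with each STAT3 shRNA, 0.696 in the library labelled control and 0.364 to 0.531 in TMD8. The sums of these 4 were 100.5 and 198 FPKM with the STAT3 shRNAs, 267 in the library labelled control and 73.1 to 123 in TMD8. IL3RA was listed at 0 in every library, CD14 was at most 0.112 FPKM and FCGR3A was listed at 0. Of 3 fibroblast or epithelial markers 3 reached 1 FPKM in some library, with sums of 5.13 and 5.56 FPKM with the STAT3 shRNAs, 5.56 in the library labelled control and 4.19 to 4.57 in TMD8. EPCAM among them had 4.39 FPKM with each STAT3 shRNA and was listed at 0 in the other libraries. COL1A1 went the other way, at 0.00823 and 0 FPKM with the STAT3 shRNAs, 3.60 in the library labelled control and 0.391 to 0.866 in TMD8. The part of other cells in the results was not tested, and in bulk RNA fewer cells of a type and less RNA per cell cannot be told apart.

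Between the STAT3 shRNA libraries and the library labelled control, 3 of the 10 members were higher, namely CD180, TLR10 and IRAK1, and 1 was lower, TLR7 (limma over 11162 genes, Benjamini-Hochberg adjusted p below 0.05). Over all genes tested 20.3% were higher and 17.4% lower, so the members' shares are near this background. The size rule, at least 1.5-fold on FPKM + 1 with each shRNA, picked the same 3 and 1 members, against 20.1% of all genes higher and 17.2% lower. The median log2 change was 0.29 over the members and 0.06 over all genes. The median size of change, whatever its direction, was 0.42 over the members and 0.49 over all genes. With small RNA genes left out and the libraries rescaled, the split over all genes was 3554 higher and 1952 lower, so 64.5% of calls were rises, against 53.8% in the fit as reported, and the median of all genes stood at 0.19. Rises were 48.8% of calls with median-of-ratios scaling and 38.2% with no filter on low values, so which direction held more calls depended on the setting.

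**Figure D1:**
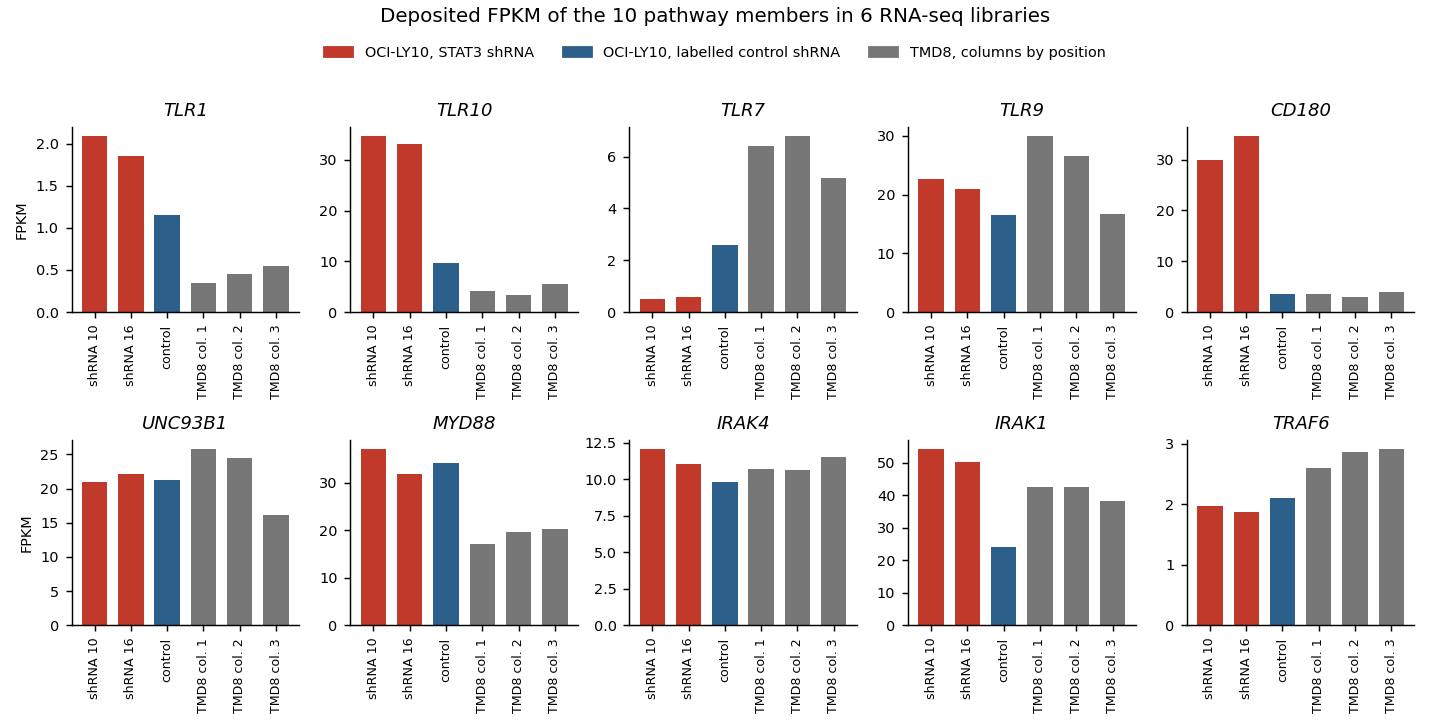
Bars give the deposited FPKM of each member in each library: STAT3 shRNAs 10 and 16 and the labelled control in OCI-LY10, then the 3 TMD8 columns by position. CD180 stands at 29.9 and 34.7 FPKM with the STAT3 shRNAs and at 3.59 in the labelled control, within the TMD8 range of 2.93 to 3.99.

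Promoter sequences show what could be read upstream of CD180 and IRAK1, which were called in OCI-LY10, and of MYD88, which did not pass the test. The other called members, TLR10 and TLR7, had no window to read. RefSeq windows of 300 bases, 250 before the annotated start to 50 after it (build GRCh38.p14), were matched by symbol for 6 members, TLR9, CD180, MYD88, IRAK4, IRAK1 and TRAF6. The windows of CD180 (chr5:67196750-67197049, minus strand), IRAK1 (chrX:154019853-154020152, minus strand) and MYD88 (chr3:38138411-38138710, plus strand) follow 5′ to 3′ on the gene's strand, with motif matches in capitals.
CD180: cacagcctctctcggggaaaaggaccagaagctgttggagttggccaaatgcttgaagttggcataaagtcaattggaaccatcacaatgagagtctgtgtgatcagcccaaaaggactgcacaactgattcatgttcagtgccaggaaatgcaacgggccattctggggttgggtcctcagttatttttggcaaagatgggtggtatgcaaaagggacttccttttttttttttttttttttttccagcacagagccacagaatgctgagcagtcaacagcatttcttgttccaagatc
IRAK1: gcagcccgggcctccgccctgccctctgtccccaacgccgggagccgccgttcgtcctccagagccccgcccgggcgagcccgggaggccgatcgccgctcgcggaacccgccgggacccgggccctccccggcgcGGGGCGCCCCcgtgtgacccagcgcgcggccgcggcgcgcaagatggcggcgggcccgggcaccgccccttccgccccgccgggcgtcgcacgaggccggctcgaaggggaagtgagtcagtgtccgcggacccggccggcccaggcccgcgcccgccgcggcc
MYD88: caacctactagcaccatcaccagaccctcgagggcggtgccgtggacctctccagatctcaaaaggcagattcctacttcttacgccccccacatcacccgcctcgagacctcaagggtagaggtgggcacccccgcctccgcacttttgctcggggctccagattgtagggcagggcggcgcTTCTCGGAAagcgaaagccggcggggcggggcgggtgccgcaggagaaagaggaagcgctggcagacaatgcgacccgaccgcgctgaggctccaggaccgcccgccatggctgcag
The motifs searched on both strands were a STAT site (TTCNNNGAA), a GAS-like site (TTCNNGGAA, whose matches are also STAT sites), an NF-kB site, the octamer (ATGCAAAT) and a PU.1 site (GAGGAAGT). The capitals in MYD88 mark the sole STAT match among the 6 windows, which is also a GAS-like match, where 7.88% and 4.58% of 27305 windows hold one. The capitals in IRAK1 mark an NF-kB match, held by 10.8% of windows. The CD180 window holds none of the 5 motifs, and TLR9 holds an octamer (1.8% of windows) and a PU.1 match (2.54%). Base composition also separated the windows: CD180 has 45% G and C with 2 CpG dinucleotides, while IRAK1 has 83.0% with 52 and MYD88 65.7% with 25, against medians of 58.3% and 14 over all windows. A match is a description of letters and shows no binding.

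CD180, a relative of the Toll-like receptors that lacks their signalling domain and acts on B cells in a complex with LY86, changed most among the members. It had 29.9 and 34.7 FPKM with shRNAs 10 and 16, against 3.59 FPKM in the library labelled control. TMD8 columns 1 to 3 held 3.62, 2.93 and 3.99 FPKM. Both STAT3 shRNA libraries were high, and the other 4, from either line, lay together. The B-cell marker sum was also highest in both STAT3 shRNA libraries, and its part in the CD180 result was not tested. Of its 7 genes 5 were called higher, CD22 lower and PAX5 not passed, where 20.3% of all genes tested were higher and 17.4% lower. The mean with the STAT3 shRNAs was 32.3 ± 3.38 FPKM (SD, n = 2), 8.99 times the library labelled control (log2 change 2.85, SE 0.14, adjusted p = 0.0103). LY86, its partner, had 25.7 and 26.3 FPKM with the STAT3 shRNAs, against 13.7 FPKM in the library labelled control and 6.89 to 9.35 in TMD8 (log2 change 0.88, adjusted p = 0.0219). A long non-coding RNA gene overlaps LY86, and the use of strand in counting is not given in the sources used here, so its value is uncertain. The FPKM ratio of CD180 to LY86 was 1.16 and 1.32 with the STAT3 shRNAs, 0.262 in the library labelled control and 0.425 to 0.486 in TMD8.

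TLR10, a receptor of the TLR1 group without an agreed ligand, had 34.8 and 33.1 FPKM with shRNAs 10 and 16, against 9.66 FPKM in the library labelled control. TMD8 had 4.23, 3.38 and 5.46 FPKM by position. Levels fell into 3 tiers, highest with the STAT3 shRNAs, lower in the library labelled control and lowest in TMD8, with no overlap. The mean with the STAT3 shRNAs was 34.0 ± 1.15 FPKM (SD, n = 2), 3.52 times the library labelled control (log2 change 1.71, SE 0.10, adjusted p = 0.0115).

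TLR1, which senses bacterial lipopeptides together with TLR2, was far less abundant. It had 2.10 and 1.85 FPKM with the STAT3 shRNAs, 1.16 FPKM in the library labelled control and 0.339, 0.458 and 0.549 FPKM in TMD8. The order of the 3 tiers was that of TLR10, but the change in OCI-LY10 did not pass (log2 change 0.46, SE 0.11, adjusted p = 0.0652). It passed with small RNA genes left out (adjusted p = 0.0268). TLR10, TLR1 and TLR6 lie side by side on chromosome 4 in RefSeq. TLR6, a close relative of TLR1 that also pairs with TLR2, had 1.68 and 1.86 FPKM with the STAT3 shRNAs, 1.63 in the library labelled control and 2.09 to 2.28 in TMD8 (adjusted p = 0.583). TLR1 and TLR6 share long stretches of sequence and TLR6 overlaps another gene, so how reads were split between these genes is uncertain. KLF3, the protein-coding neighbour of TLR10 on its other side, had 0.157 and 0.143 FPKM with the STAT3 shRNAs, 2.01 in the library labelled control and a TMD8 median of 2.94. KLF3 was too low over the OCI-LY10 libraries to be tested.

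TLR7, the endosomal sensor of single-stranded RNA, was the member that fell. It passed the filter on low values only through the library labelled control, which favours a lower call. It had 0.511 and 0.579 FPKM with shRNAs 10 and 16, against 2.57 FPKM in the library labelled control. TMD8 had 6.42, 6.81 and 5.18 FPKM. The tiers were the reverse of those of TLR10, with TMD8 at the top. The mean with the STAT3 shRNAs was 0.545 ± 0.0477 FPKM (SD, n = 2), 21.2% of the library labelled control (log2 change -1.21, SE 0.08, adjusted p = 0.0142). Such low values make the size of the change depend on the pseudocount, from -2.05 with 0.1 FPKM to -0.45 with 5 FPKM. TLR7 passed with both, under the same filter. CD68 likewise was higher in the library labelled control and in TMD8 than with the STAT3 shRNAs (1.41 and 0.927 FPKM with the STAT3 shRNAs, against 46.6 in the library labelled control), as were the myeloid markers CSF1R (0.0266 and 0.127 FPKM with the STAT3 shRNAs, against 0.480 in the library labelled control) and, in the library labelled control, ITGAM (0.0207 and 0 FPKM with the STAT3 shRNAs, against 0.252). CD14, FCGR3A and LYZ did not follow this pattern, and the part of these markers in the TLR7 result was not tested. TLR8, its neighbour on chromosome X and a related RNA sensor, was not tested, at 0.0117 and 0 FPKM with the STAT3 shRNAs, 0.254 in the library labelled control and 0.237 to 0.321 in TMD8.

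TLR9, the endosomal sensor of unmethylated CpG DNA, was much more abundant than TLR7 in every library. It had 22.6 and 21.0 FPKM with the STAT3 shRNAs and 16.6 FPKM in the library labelled control, while TMD8 had 30.0, 26.5 and 16.7 FPKM. The third TMD8 column lay near the library labelled control and the other two lay above all OCI-LY10 libraries. The change in OCI-LY10 did not pass (log2 change 0.38, SE 0.11, adjusted p = 0.0915), except with small RNA genes left out (adjusted p = 0.0424). Its neighbours ALAS1 and TWF2 both fell (log2 change -0.65 and -0.48, adjusted p = 0.0301 and 0.0433). The FPKM ratio of TLR7 to TLR9 was 0.0226 and 0.0276 with the STAT3 shRNAs, 0.155 in the library labelled control and 0.214, 0.257 and 0.309 in TMD8.

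UNC93B1, the membrane protein that carries TLR7 and TLR9 from the endoplasmic reticulum to endosomes, did not pass in OCI-LY10. It had 21.0 and 22.2 FPKM with the STAT3 shRNAs, 21.3 FPKM in the library labelled control, and 25.8, 24.5 and 16.2 FPKM in TMD8. The library labelled control lay between the 2 STAT3 shRNAs (log2 change 0.02, SE 0.10, adjusted p = 0.891), and the sign turned under 2 scalings. RefSeq names 7 pseudogenes of the UNC93B family, so reads may be shared among copies. The third TMD8 column was the lowest for both UNC93B1 and TLR9.

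MYD88, the adaptor shared by these receptors, did not pass in OCI-LY10, and its levels separated the lines. It had 37.1 and 31.8 FPKM with shRNAs 10 and 16, 34.2 FPKM in the library labelled control, and 17.1, 19.6 and 20.2 FPKM in TMD8. All 3 OCI-LY10 libraries lay above all 3 TMD8 columns. This includes the library labelled control, which for MYD88 stood with the STAT3 shRNA libraries of its labelled line. The log2 change was 0.01 (SE 0.14, adjusted p = 0.976), with the sign turned under 2 scalings. The tables were deposited separately, so the gap between lines was not tested. ACAA1, the neighbouring gene, had 30.7 and 31.6 FPKM with the STAT3 shRNAs and 29.1 in the library labelled control (adjusted p = 0.461).

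Of the kinases below MYD88, IRAK1 passed the test and IRAK4 did not, and the difference between them was not tested. IRAK1, which IRAK4 phosphorylates, had 54.4 and 50.3 FPKM with the STAT3 shRNAs, against 24.1 FPKM in the library labelled control. TMD8 had 42.6, 42.5 and 38.4 FPKM. The library labelled control was the lowest of all 6, as it also was for IRAK4 and TLR9. The mean with the STAT3 shRNAs was 52.3 ± 2.89 FPKM (SD, n = 2), 2.17 times the library labelled control (log2 change 1.08, SE 0.10, adjusted p = 0.0199). IRAK4, the kinase that starts the cascade, had 12.1 and 11.1 FPKM with the STAT3 shRNAs, 9.85 in the library labelled control and 10.6 to 11.5 in TMD8. It did not pass (log2 change 0.21, SE 0.12, adjusted p = 0.245). The FPKM ratio of IRAK1 to IRAK4 was 4.50 and 4.54 with the STAT3 shRNAs, 2.45 in the library labelled control and 3.34 to 3.99 in TMD8. TMEM187, a neighbour of IRAK1, did not pass (adjusted p = 0.335).

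TRAF6, the ubiquitin ligase that passes the signal to NF-kB, was low in every library and even within OCI-LY10. It had 1.97 and 1.88 FPKM with the STAT3 shRNAs, 2.10 in the library labelled control, and 2.61, 2.86 and 2.92 in TMD8. The change in OCI-LY10 did not pass (log2 change -0.09, SE 0.09, adjusted p = 0.501). RefSeq names 1 pseudogene of TRAF6, so reads may be shared. TMD8 columns were all higher than the OCI-LY10 libraries, in the direction opposite to MYD88. The FPKM ratio of MYD88 to TRAF6 was 18.9 and 16.9 with the STAT3 shRNAs, 16.3 in the library labelled control and 6.57 to 6.91 in TMD8.

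**Figure D2:**
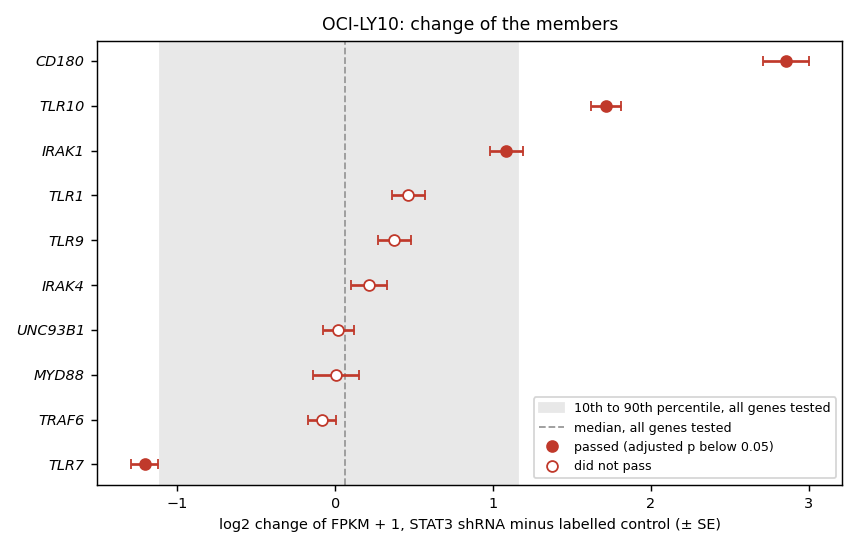
Points give the log2 change of FPKM + 1 for each member in OCI-LY10, STAT3 shRNA minus labelled control, with bars for the SE from limma. CD180 (2.85), TLR10 (1.71) and TLR7 (-1.21) lie outside the grey band, the 10th to 90th percentile of 11162 genes (-1.11 to 1.16).

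The order of the members by FPKM was partly shared between the libraries. With the STAT3 shRNAs it ran from IRAK1 through MYD88, TLR10, CD180, TLR9, UNC93B1, IRAK4, TLR1 and TRAF6 down to TLR7. Among these, MYD88 and TLR10 overlapped in range, as did TLR10 and CD180, TLR9 and UNC93B1, and TLR1 and TRAF6. In the library labelled control MYD88 came first, then IRAK1, UNC93B1, TLR9, IRAK4, TLR10, CD180, TLR7, TRAF6 and TLR1. In TMD8 IRAK1 again led, followed by TLR9, UNC93B1, MYD88, IRAK4, TLR7, TLR10, CD180, TRAF6 and TLR1. There TLR9 and UNC93B1 overlapped in range, as did UNC93B1 and MYD88, TLR7 and TLR10, and TLR10 and CD180. MYD88, IRAK1, TLR9 and UNC93B1 stood among the upper 6 of the 10 in every library. CD180 and TLR10 stood in the upper 4 with the STAT3 shRNAs and in the lower 5 elsewhere.

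The library labelled control lay nearer to the TMD8 median than to the STAT3 shRNA mean, on the log2(FPKM + 1) scale, for 5 of the 10 members. These were TLR10, TLR7, CD180, IRAK4 and IRAK1, and they include all 4 members called in OCI-LY10. A call requires the library labelled control to lie away from the STAT3 shRNA mean, so the rule favours called members. Over all genes tested the share was 60.3%, so the members' share is near the background. The distance was smallest for CD180, at -0.01 from the TMD8 median and -2.85 from the STAT3 shRNA mean. For MYD88 it was the other way, at 0.78 from the TMD8 median and -0.01 from the STAT3 shRNA mean. Because both distances share the library labelled control and the tables were deposited separately, they are given as a description.

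**Figure D3:**
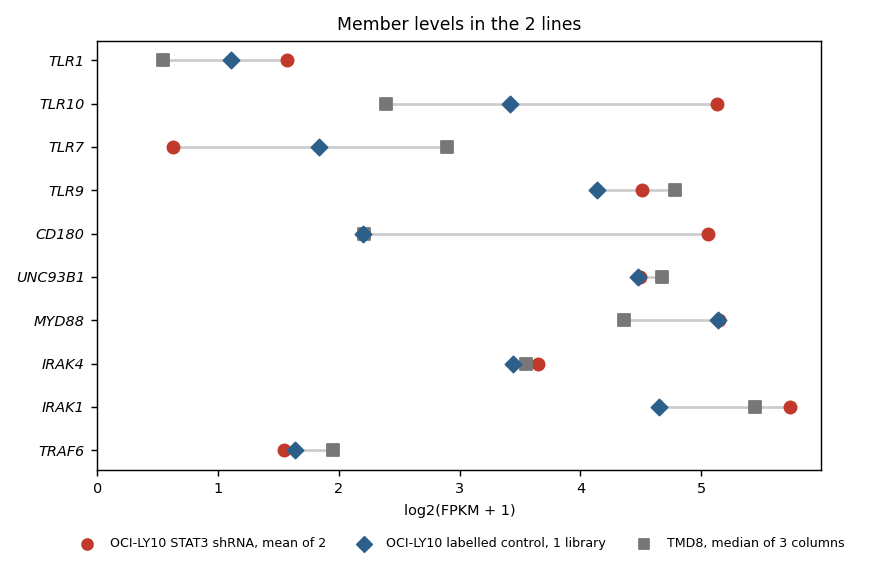
Symbols give log2(FPKM + 1) of each member: the mean of the STAT3 shRNA libraries, the OCI-LY10 library labelled control, and the median of the 3 TMD8 columns. The labelled control sits on the TMD8 median for CD180 and on the STAT3 shRNA mean for MYD88. It lies below both for IRAK1, as for IRAK4, TLR9 and UNC93B1.

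Between the 2 STAT3 shRNAs the members differed little. The gap on the log2(FPKM + 1) scale had a median of 0.11 over the members and 0.12 over all genes tested, and was widest for MYD88 at 0.22. The FPKM ratio of shRNA 16 to shRNA 10 ran from 0.856 for MYD88 to 1.16 for CD180. Across the 3 TMD8 columns the range from lowest to highest had a median of 0.28 over the members and 0.26 over all genes, and was widest for TLR9 at 0.81. No shRNA can be assigned to a TMD8 column from its name, so no TMD8 comparison was made.

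Other genes of the pathway, 53 in 7 role groups, moved in both directions. Of the 43 that passed the filter on low values, 5 were higher, 9 lower and 29 did not pass, with a median log2 change of 0.02. Over all genes tested 20.3% were higher and 17.4% lower. In limma 23 of the 43 had an unadjusted p below 0.05, against 5844 of all 11162 genes tested.

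Among the 6 other receptors 3 were tested, of which 2 were lower and 0 higher. TLR2, the partner of TLR1 and TLR6, had 0.191 and 0.323 FPKM with the STAT3 shRNAs, against 3.08 in the library labelled control and 0.988 to 2.19 in TMD8 (log2 change -1.70, adjusted p = 0.0133). Like TLR7, TLR2 passed the filter on low values only through the library labelled control, which favours a lower call. Its change ran from -3.18 with a pseudocount of 0.1 FPKM to -0.62 with 5 FPKM. TLR4, the receptor of bacterial lipopolysaccharide, had 2.53 and 1.81 FPKM with the STAT3 shRNAs, against 5.59 in the library labelled control, and 0.238 to 0.351 in TMD8 (log2 change -1.06, adjusted p = 0.0474), a call lost under 3 of 7 alternatives (adjusted p up to 0.112) and as small as -0.56 with a pseudocount of 5 FPKM. TLR3 and TLR5 were at most 0.0353 FPKM in any library.

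Among 4 co-receptors 1 was higher, 1 lower and 1 did not pass, the fourth being too low to test. CD36, a scavenger receptor that assists TLR2, had 1.62 and 1.79 FPKM with the STAT3 shRNAs, against 107.6 in the library labelled control and 21.6 to 36.9 in TMD8 (log2 change -5.33, adjusted p = 0.00676). Among 10 chaperones and processing factors 8 were tested, of which 1 was higher and 1 lower. CNPY3, which together with HSP90B1 folds Toll-like receptors in the endoplasmic reticulum, had 314 and 358 FPKM with the STAT3 shRNAs, against 40.9 in the library labelled control and 45.8 to 54.3 in TMD8. Its change (log2 3.0, SE 0.13, adjusted p = 0.00898) was large, although a readthrough gene overlaps it and may take some of its reads. HSP90B1 had 281 and 256 FPKM with the STAT3 shRNAs, against 181 in the library labelled control, and 178 to 188 in TMD8, and did not pass (log2 change 0.56, adjusted p = 0.0515), except with small RNA genes left out (adjusted p = 0.0135). CXorf21, which links endosomal receptors to IRF5, had 10.6 and 9.35 FPKM with the STAT3 shRNAs, against 16.8 in the library labelled control (log2 change -0.70, adjusted p = 0.0471), and lost its call under 2 of 8 alternatives (adjusted p up to 0.0904).

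Among 4 adaptors 3 were tested and 0 passed in limma, with 0 at an unadjusted p below 0.05, against 5844 of all 11162 genes tested. SARM1, an adaptor that missed the filter on low values and is named here because its values were seen, had 0.857 and 1.03 FPKM with the STAT3 shRNAs, 0.0437 in the library labelled control and at most 0.0283 in TMD8. Among 15 kinases and ubiquitin enzymes 13 were tested, with 3 higher and 2 lower. PELI3, of the Pellino ligases that bind IRAK proteins, had 7.14 and 7.23 FPKM with the STAT3 shRNAs, against 0.71 in the library labelled control and 1.26 to 1.80 in TMD8 (log2 change 2.26, adjusted p = 0.00881). The change of PELI3 ran from 3.17 with a pseudocount of 0.1 FPKM to 1.09 with 5 FPKM. PELI3 passed the filter on low values only through the STAT3 shRNA libraries, which favours a higher call. IKBKG, the regulatory subunit of the IkB kinase, had 20.1 and 18.6 FPKM with the STAT3 shRNAs, against 9.52 in the library labelled control, and 8.95 to 10.6 in TMD8 (log2 change 0.95, adjusted p = 0.0246), and did not pass once unfiltered genes were included (adjusted p = 0.0521). TRAF3, a regulator that restrains the alternative NF-kB pathway, had 1.69 and 1.86 FPKM with the STAT3 shRNAs, against 20.2 in the library labelled control, and 36.3 to 40.9 in TMD8 (log2 change -2.94, adjusted p = 0.00773), a change of -1.90 with a pseudocount of 5 FPKM. BTK, a kinase of B-cell receptor signalling, had 90.04 and 84.7 FPKM with the STAT3 shRNAs, against 188 in the library labelled control and 146 to 181 in TMD8 (log2 change -1.10, adjusted p = 0.0177). The other call here was TAB2, a partner of the kinase MAP3K7 (log2 change 0.69, adjusted p = 0.0321). IRAK2, another IRAK kinase, was under 1 FPKM in every library and was not tested.

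Among 7 negative regulators 6 were tested and 0 passed, with 1 past the 1.5-fold rule as higher, against 20.1% of all genes. In limma 2 of the 6 had an unadjusted p below 0.05, against 5844 of all 11162 genes tested. Those 2 were TNFAIP3 (log2 change 0.82, adjusted p = 0.0506), which is also the 1 past the fold rule, and CYLD (log2 change -0.37, adjusted p = 0.0833), both enzymes that remove ubiquitin chains. IRAK3, an IRAK protein that restrains signalling, and PELI2, another Pellino ligase, missed the filter on low values and are named here because their values were seen. IRAK3 had 0.0753 and 0.0973 FPKM with the STAT3 shRNAs, 2.08 in the library labelled control and 4.02 to 4.89 in TMD8. PELI2 had 0.0171 and 0.0117 FPKM with the STAT3 shRNAs, against 2.56 in the library labelled control, and 4.73 to 5.29 in TMD8. Among 7 transcription factors and regulators 3 were lower and 0 higher, where 17.4% of all genes tested were lower and 20.3% higher. In limma 7 had an unadjusted p below 0.05, against 5844 of all 11162 genes tested. These went in both directions. IRF7 (log2 change 0.54) and RELA (0.34) rose and IRF5 (-1.06) and REL (-0.35) fell, none of them passing after adjustment. NFKB1, the NF-kB subunit precursor, had 26.8 and 28.4 FPKM with the STAT3 shRNAs, against 63.6 in the library labelled control and 43.1 to 44.8 in TMD8 (log2 change -1.18, adjusted p = 0.0166). NFKBIZ, an NF-kB co-regulator induced through MYD88, had 48.4 and 47.8 FPKM with the STAT3 shRNAs, against 105 in the library labelled control, and 85.8 to 129 in TMD8 (log2 change -1.11, adjusted p = 0.0155). NFKBIA, an inhibitor of NF-kB, was the other call (log2 change -1.06, adjusted p = 0.0215). Of the genes given with their levels in these groups, antisense or other genes overlap TLR2, TLR4, HSP90B1, PELI3, IKBKG, TRAF3, NFKB1, NFKBIZ and IRAK3, so shared reads cannot be told apart there.

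**Figure D4:**
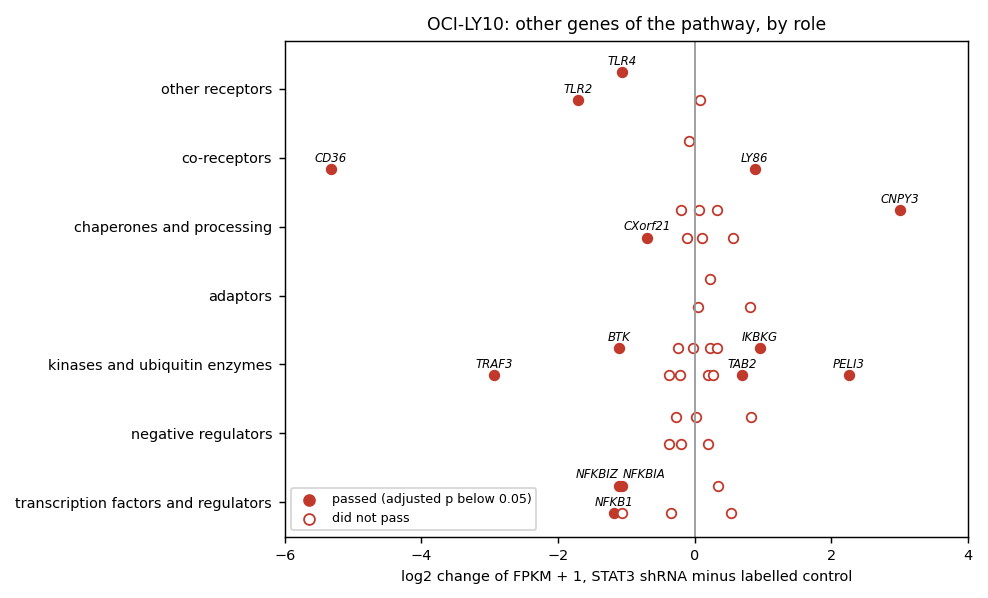
Points give the log2 change of FPKM + 1 in OCI-LY10, STAT3 shRNA minus labelled control, for the 43 tested genes of the wider pathway by role, filled where the adjusted p was below 0.05. CNPY3 (3.0) and PELI3 (2.26) lie farthest right, CD36 (-5.33) and TRAF3 (-2.94) farthest left, and the 3 adaptors and 6 negative regulators are all open.

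For each called member, the gene with the most similar profile over the 6 libraries was found among 10247 genes of at least 1 FPKM in both lines, by Euclidean distance of log2(FPKM + 1) centred on each gene's mean. For CD180 it was TMEM54, at 15.6 and 18.1 FPKM with the STAT3 shRNAs, 1.21 in the library labelled control and 1.12 to 1.2 in TMD8 (distance 0.30). For TLR10 it was FANCA, at 39.4 and 36.9 FPKM with the STAT3 shRNAs, 9.09 in the library labelled control and 4.31 to 6.0 in TMD8 (distance 0.26). For TLR7 it was SEPN1, at 3.54 and 3.42 FPKM with the STAT3 shRNAs, 10.4 in the library labelled control and 18.2 to 22.4 in TMD8 (distance 0.15). For IRAK1 it was RMND5A, at 25.1 and 22.4 FPKM with the STAT3 shRNAs, 10.9 in the library labelled control and 16.9 to 19.8 in TMD8 (distance 0.10).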

How the data were processed

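The authors deposited FPKM values, 1 per gene and library, in 1 table per line. Per the submitters' processing notes, TopHat, Bowtie2 and hg19 were used, with no version listed. What computed FPKM, on which annotation and with what scaling, was not given in the sources used here. The OCI-LY10 columns were matched to samples by name. The 3 TMD8 columns have no header and were used by position, as libraries of that line. Rows of 2 repeated symbols were summed.

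FPKM gives no read total, so absolute depth is unknown. Ratios of values under 0.1 FPKM gave depth relative to shRNA 10 of 0.731 for shRNA 16 and 1.52 for the library labelled control. In TMD8 only 11.5% and 7.24% of such ratios lay within 1% of a ratio of small whole numbers, so no relative depth is given. The FPKM sums ran from 905356 to 1382655. Small RNA genes held 57.8% and 58.2% of the sum with the STAT3 shRNAs and 49.0% in the library labelled control. In TMD8 they held 22.5%, 28.7% and 43.3% by position. The share left to other genes thus differed between the groups and lines whose levels are set side by side.

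For genes averaging 1 FPKM or more in OCI-LY10, log2(FPKM + 1) was fitted with limma (version 3.58.1, R 4.3.3, two-sided, moderated with a mean-variance trend, 1 residual degree of freedom, 1.64 prior degrees of freedom), with Benjamini-Hochberg adjustment over 11162 genes and a threshold of 0.05. The spread of the library labelled control is unobserved and was assumed equal to that between the STAT3 shRNAs. Fold changes on this scale understate the change of low genes. The fit was tested on simulated data in which every library had the spread of the STAT3 shRNA libraries. That test cannot check the assumed spread of the library labelled control. Named genes of the wider pathway were up to 2 called rises and 2 called falls per role group, with the partners of members. The members and lists were chosen with earlier results of these data known. A planned comparison of protein sequences was not run, and 1 gene of the planned wider list is not reported here.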

Additional observations from a re-analysis of the deposited data

How the results depend on the processing

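The 4 member calls, of CD180, TLR10, IRAK1 and TLR7, held under every alternative in which the gene was tested (8, 8, 8 and 7 settings), with adjusted p up to 0.0369, 0.0324, 0.0463 and 0.0368. For TLR7 the filter on low values, passed only through the library labelled control, favours a lower call. Settings that keep that filter share this limit. With a filter at 5 FPKM TLR7 was not tested, so 0 members were called lower and 1178 genes in all. With small RNA genes left out 5 members were called higher, TLR1 and TLR9 being added, and 3554 genes in all. There the median of all genes moved to 0.19, and relative to it TLR1 stood at 0.36 and TLR9 at 0.32, against 0.40 and 0.31 in the fit as reported. Without a filter 1299 genes were called higher and 2101 lower. At 2-fold, 1180 genes were higher and 1131 lower with both shRNAs. Signs turned for UNC93B1 (-0.055) and MYD88 (-0.069) with median-of-ratios scaling, for both with quantile normalization (-0.057 and -0.091), and for TRAF6 with small RNA genes left out (0.011). Against 1 shRNA alone, with no test, UNC93B1 ranged from -0.019 with shRNA 10 to 0.057 with shRNA 16, and MYD88 from -0.10 with shRNA 16 to 0.11 with shRNA 10. The cause was not tested. Of 77 refitted values of the members, 70 kept both direction and side of the threshold. In the part of the promoter window nearest the start, 0 members held an NF-kB match and 0 an octamer. No paired analysis was possible because each shRNA has 1 library. With 1 library labelled control, its own spread is unknown, and no value here separates STAT3 depletion from other differences of that library.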
